A study of Mus musculus with 25 samples.

Results

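The 10 genes described here are melanocyte regulators, receptors and pigment genes, and a Mitf target, the metabolic coactivator Ppargc1a. The regulators are the master regulator Mitf and the transcription factors Pax3 and Sox10 that act above it. The receptors are the endothelin receptor Ednrb and the melanocortin receptor Mc1r, and the pigment genes are Tyr, Tyrp1, Dct and Mlana. The 10 genes were taken by symbol from a table of 23940 genes measured in 25 mouse melanomas, and 10 of 10 were present. In these tumors the regulators were transcribed and the pigment genes were near 0. Pax3, Mitf, Ednrb and Sox10 averaged at least 1 FPKM (fragments scaled by transcript length and by library size), as did 12197 genes in all, 50.9% of the table. Dct, Tyr, Tyrp1, Mlana, Mc1r and Ppargc1a never reached 1 FPKM in any tumor. Of the other 4 genes, Pax3 and Mitf were at 1 FPKM or above in all 25 tumors, Ednrb in 23 and Sox10 in 18. Which cells of the tumors made them was not tested.

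The tumors were grown in C57BL/6 mice from YUMM1.7, a mouse melanoma line that carries mutant Braf and lacks Cdkn2a, and biopsies were profiled by unstranded polyA RNA-seq. Batch 1 held 18 tumors at 4 stages of treatment with a BRAF inhibitor, whose name the labels do not give. These were 4 tumors taken before the drug (Veh, untreated), 4 that were shrinking on it (Reg), 5 that remained small and static on it (Res, residual) and 5 that had become resistant (Prog). Batch 2, marked as such in the labels, held 7 tumors: 2 residual tumors on the inhibitor plus an antibody to PD-L2, an immune checkpoint ligand (aPDL2_small), 2 tumors resistant to that combination (aPDL2_large) and 3 resistant to the inhibitor alone (Prog_b2). The labels do not say that each tumor came from a separate mouse, so p-values measure the spread between these samples. All groups share the same engineered line, and ages, doses and days on drug were not given in the sources used here.

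In melanocytes, Pax3 and Sox10 bind the Mitf promoter, and Mitf in turn binds short E-box elements in front of the pigment genes. Tyr catalyses the first step from tyrosine to melanin, Tyrp1 and Dct work further along the same route, and Mlana encodes a protein of the maturing melanosome. Ednrb receives endothelin and Mc1r receives melanocortin, and both feed into Mitf. In melanoma, Mitf is known both as a lineage survival factor and as a gene whose level moves when MAP kinase signalling is blocked.

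The E-box that Mitf prefers, CATGTG, was searched for on both strands (its reverse complement reads CACATG) in the 250 bases before each RefSeq start site. Of the 10 genes 7 had a promoter entry, with 9 start sites, of which 3 belonged to Mitf. The promoters of 5 genes held the element, as did 12.3% of the 32851 promoters in the RefSeq table. The first count is of genes and the share is of promoters. The list was also chosen to hold known Mitf targets, so no enrichment is read from it. These windows are shown because the genes behind them are among those that stayed near 0 while Mitf was transcribed. Mlana, also near 0, had no promoter entry. Each runs 5′ to 3′ on the gene's strand, with the element in capitals and GRCm38.p6 coordinates (the tumor reads were mapped to the older build mm9). RNA-seq measures nothing on the windows themselves.
Tyr, chr7:87493516-87493545, minus strand: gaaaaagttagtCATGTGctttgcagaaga
Tyrp1, chr4:80834155-80834184, plus strand: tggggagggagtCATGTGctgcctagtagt
Dct, chr14:118052379-118052408, minus strand: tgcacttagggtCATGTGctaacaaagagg
Mc1r, chr8:123407019-123407048, plus strand: gCACATGcccatCATGTGgccaccctcagg
Ppargc1a, chr5:51567868-51567897, minus strand: gctgttggaaagCACATGatactgtacata
The element began 21 bases before the Tyr start, 46 before that of Tyrp1, 51 before that of Mc1r, 150 before that of Dct and 160 before that of Ppargc1a. Dct and Mc1r each held 2 matches. The distances are those of the match nearer the start, the Mc1r window holds both, the other one as CACATG 62 bases before the start, and the second match of Dct, 232 bases before the start, is not shown. A letter match of this kind is a description of the sequence and says nothing of whether Mitf was bound there.

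**Figure D1:**
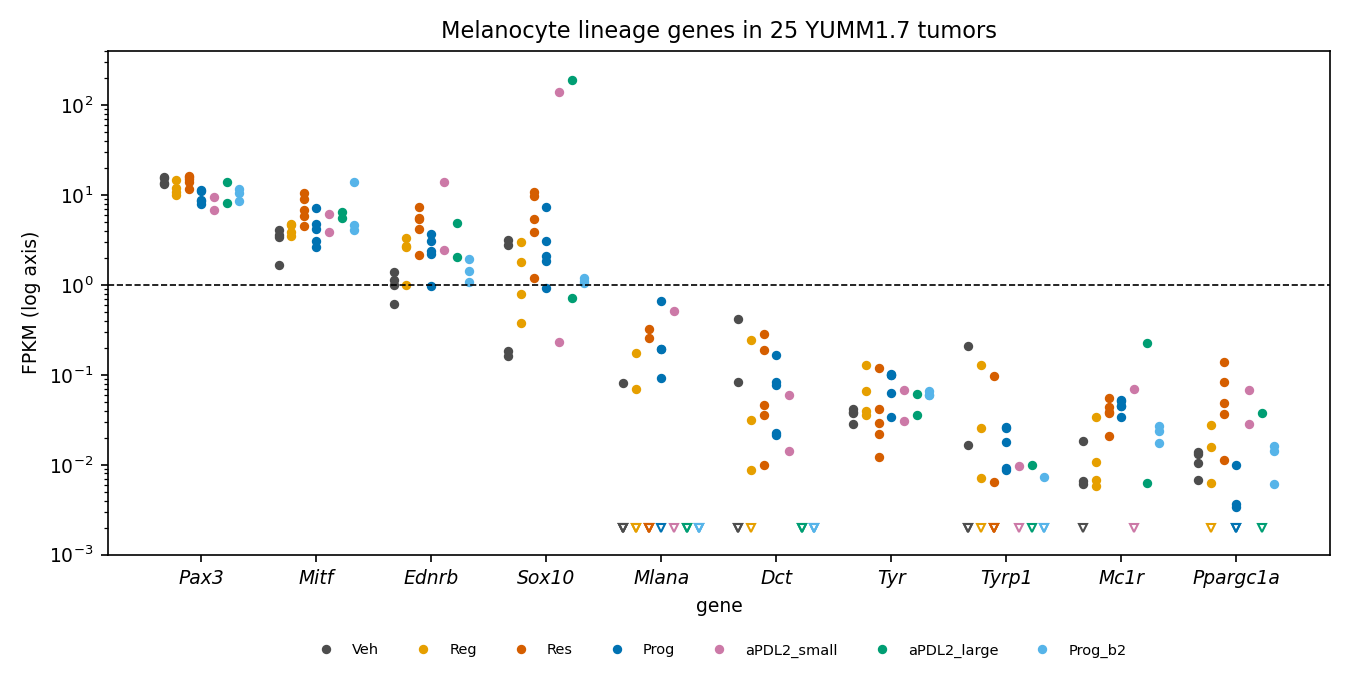
FPKM on a log axis of the 10 genes in each of 25 tumors, coloured by group; the dashed line marks 1 FPKM and open triangles at the bottom mark values listed at 0. Pax3 and Mitf lie above the line in every tumor, and 6 genes lie below it in every tumor, with 0.665 FPKM as their highest value.

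Mitf was transcribed in every tumor and in batch 1 had its highest mean in the residual ones. Across the stages, Mitf read 3.57, 3.42, 4.07 and 1.64 FPKM in the Veh tumors and 3.46, 4.79, 3.88 and 4.59 FPKM in the Reg tumors. It then read 5.79, 8.98, 6.76, 10.5 and 4.48 FPKM in the Res tumors and 7.15, 2.65, 4.23, 4.72 and 3.10 FPKM in the Prog tumors. Every Res tumor exceeded every Veh tumor, while Prog and Res overlapped, because the highest Prog tumor passed 3 Res tumors. Between Res and Veh tumors 32.0% of all genes tested had groups that did not overlap. Mitf averaged 7.29 ± 2.42 FPKM in Res tumors (SD, n = 5) and 3.17 ± 1.06 FPKM in Veh tumors (SD, n = 4), a rise of 0.98 ± 0.25 (SE) on the log2(FPKM + 1) scale on which every difference below is given (limma, adjusted p = 0.00464). It fell in Prog tumors, with 4.37 ± 1.76 FPKM (SD, n = 5) against 7.29 ± 2.42 FPKM in Res tumors, a log2 difference of -0.64 ± 0.24 (SE) (limma, adjusted p = 0.0228). Mitf did not differ detectably between Prog and Veh tumors, at 0.35 ± 0.25 with a 95% interval from -0.18 to 0.87. The fall in Prog tumors depended on single tumors: without Res 2, Res 4, Prog 2 or Prog 5 its adjusted p lay between 0.0591 and 0.0686.

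These changes were set against a transcriptome in which a large share of genes moved. Between Res and Veh tumors 3 of the 4 lineage genes tested rose and 0 fell, where 45.5% of all 12210 genes tested were called and 20.4% were called higher. Between Prog and Res tumors 3 of 4 fell and 0 rose, where 72.4% of genes were called, 32.4% lower and 40.0% higher. Between Prog and Veh tumors 1 of 4 fell, against 46.3% called in either direction and 21.1% called lower. Between Res and Reg tumors 1 of 4 rose, against 36.4% called, 13.9% higher and 22.5% lower. Reg tumors gave 0 calls against Veh among these genes and 0.0164% among all genes, although 1364 genes had an unadjusted p under 0.05. Prog tumors gave 0 lineage calls against Reg, where 48.4% of all genes were called. The 4 lineage genes tested had a median log2 difference of 1.23 in Res against Veh tumors, beside -0.03 over all genes, and of -0.70 in Prog against Res tumors, beside 0.08 over all genes.

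**Figure D2:**
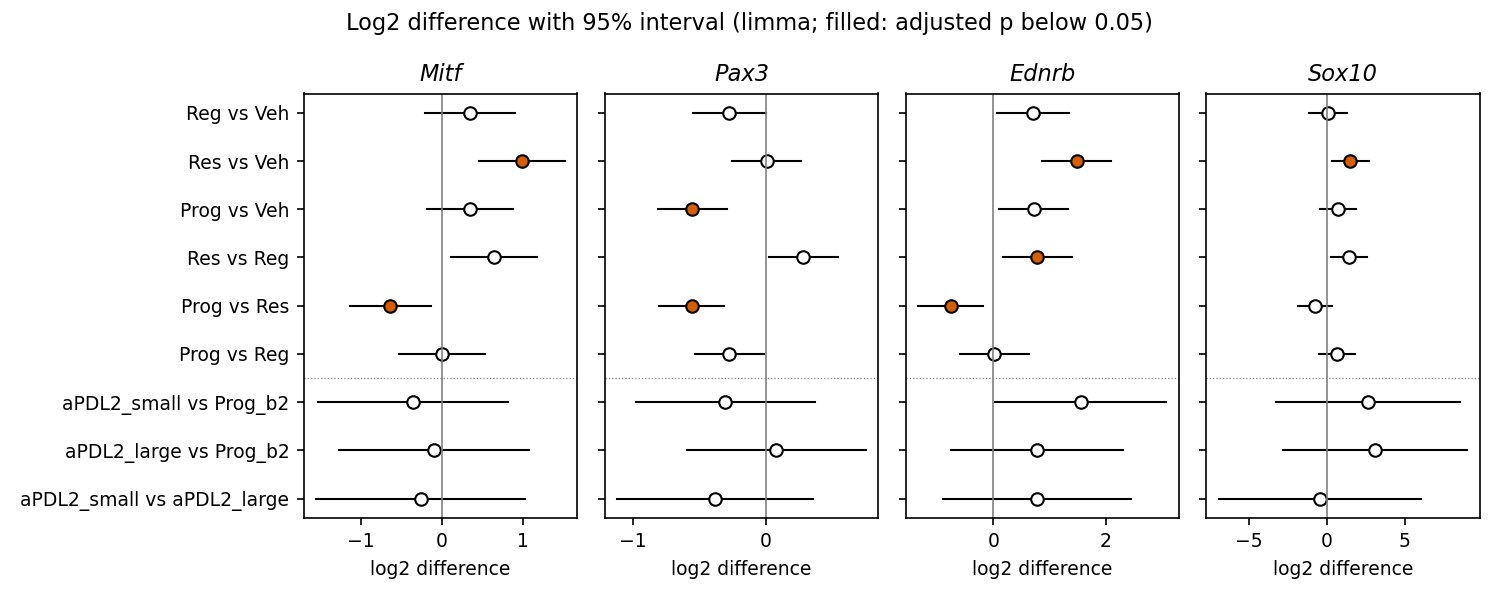
Log2 difference (x axis) of the 4 expressed lineage genes in each comparison (rows), with limma's 95% interval; filled points passed an adjusted p of 0.05, and the dotted line divides batch 1 above from batch 2 below. The x axes differ between panels, and the batch 2 intervals of Sox10 are the widest, from -3.28 to 8.56 in aPDL2_small against Prog_b2.

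The 3 relatives of Mitf in the MiT family, which bind the same E-box and are known for driving lysosome genes, also rose in Res tumors, 3 of 3 against Veh. In that comparison 20.4% of all genes tested were called higher. Tfec read 8.68, 9.58, 9.90, 16.5 and 8.13 FPKM in Res tumors and 4.10, 3.51, 0.500 and 1.33 FPKM in Veh tumors, a rise of 1.91 ± 0.31 (adjusted p = 0.000158). Tfeb read 9.99, 14.2, 14.8, 12.5 and 6.12 FPKM in Res tumors and 5.44, 5.63, 4.42 and 3.02 FPKM in Veh tumors, a rise of 1.13 ± 0.25 (adjusted p = 0.0017). Neither gene's Res values overlapped its Veh values, in a comparison where 32.0% of all genes tested had groups that did not overlap. Tfe3, the most abundant of the family, moved least, at 0.25 ± 0.10 (adjusted p = 0.0496), with 27.0 to 34.8 FPKM in Res tumors and 22.1 to 29.2 FPKM in Veh tumors. Against Res, Prog tumors had lower Tfeb (-1.81 ± 0.23) and lower Tfec (-1.69 ± 0.29), while Tfe3 differed by 0.07 ± 0.09. Tfeb was also below Veh in Prog tumors, at -0.68 ± 0.25 (adjusted p = 0.0332), and Tfe3 above it, at 0.32 ± 0.10 (adjusted p = 0.0138). The family together summed to 47.1 to 56.3 FPKM in Res tumors and to 26.4 to 34.1 FPKM in Veh tumors.

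**Figure D3:**
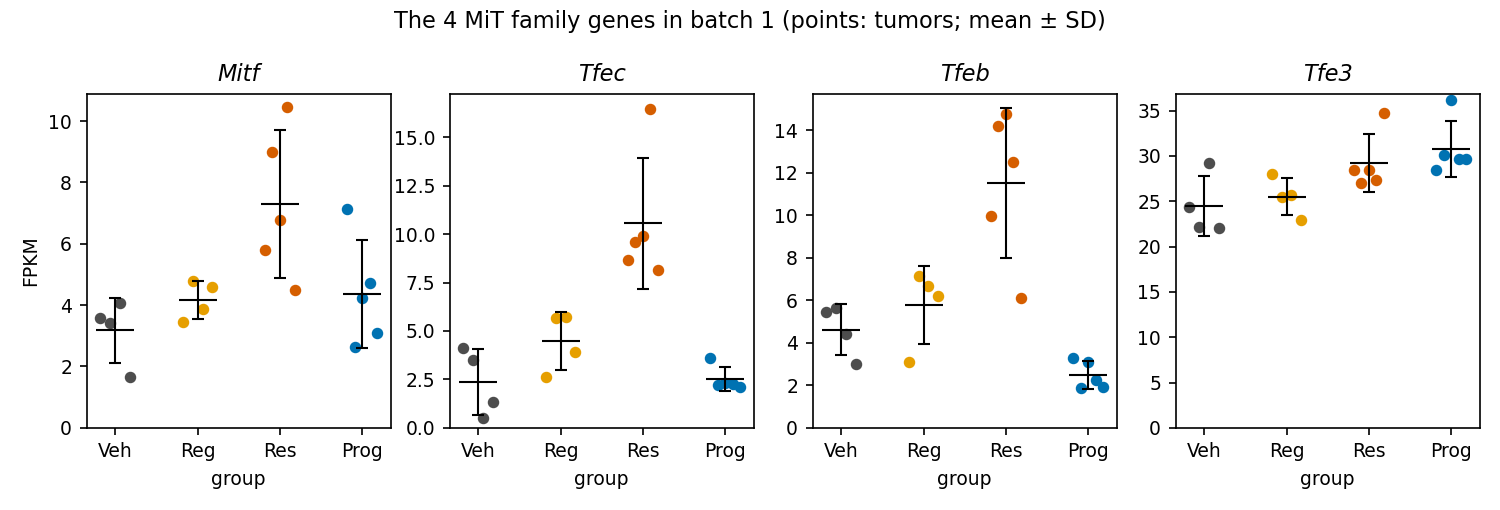
FPKM of Mitf, Tfec, Tfeb and Tfe3 in the 18 tumors of batch 1 (points), with mean and SD for each stage. The 5 Res tumors lie at 8.13 FPKM or above for Tfec, and no other tumor exceeds 5.74 FPKM.

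Tfec and Mitf are also used by cells other than melanoma cells, macrophages and mast cells among them, and markers of such cells moved in the same comparison. All 7 macrophage markers rose in Res against Veh tumors, with summed levels of 1470.3 to 3109 FPKM in Res tumors and 215 to 1271 FPKM in Veh tumors. All 7 mast cell markers rose too, with sums of 194 to 819 FPKM in Res tumors and 0.970 to 203 FPKM in Veh tumors, as did all 7 endothelial markers and 8 of 8 skeletal muscle markers tested. In that comparison 20.4% of all genes tested were called higher. In Prog against Res tumors, 6 of 7 macrophage, 7 of 7 mast cell, 6 of 7 endothelial and 8 of 8 skeletal muscle markers tested fell. There 32.4% of all genes tested were called lower. The other endothelial marker, Cdh5, named after its values were seen, rose, with 76.7 to 118 FPKM in Prog tumors and 13.0 to 29.7 FPKM in Res tumors. Of 4 markers of osteoclasts, another lineage that uses Mitf, 2 were tested and 1 rose in Res against Veh tumors. Their sums were 2.44 to 17.0 FPKM in Res tumors and 1.35 to 4.90 FPKM in Veh tumors, with medians of 7.16 and 1.55 FPKM. Among them Atp6v0d2, a proton pump subunit named after its values were seen, read 1.82 to 16.8 FPKM in Res tumors and 0.167 to 1.09 FPKM in Veh tumors. These groups did not overlap, as was so for 32.0% of all genes tested. The other marker tested, Ocstamp, did not rise. It read 0.159 to 1.51 FPKM in Res tumors and 0.264 to 4.04 FPKM in Veh tumors. The part of these cells in the Mitf and MiT family changes was not tested. In bulk tumor RNA, fewer cells of a type and less RNA per cell cannot be told apart.

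Of 12 further genes known as Mitf targets outside pigmentation, 10 passed the filter and they did not move as a block. In Res against Veh tumors 3 rose and 4 fell, where 20.4% of all genes tested were called higher and 25.1% lower. Their median was 0.03 beside -0.03 over all genes. Acp5, a lysosomal phosphatase of osteoclasts and macrophages, rose by 1.79 ± 0.50 (adjusted p = 0.00818). Met, the hepatocyte growth factor receptor, fell by 1.38 on the log2 scale (SE 0.23, adjusted p = 0.000175), with 2.76 to 6.15 FPKM in Res tumors and 8.17 to 16.8 FPKM in Veh tumors. Cdk2, a cell cycle kinase that Mitf maintains in melanocytes, and Apex1, a DNA repair and redox enzyme, fell by 0.81 and 1.11 on the same scale (adjusted p = 0.000238 and 5.82e-06). Both were higher in Prog than in Res tumors, by 1.06 ± 0.13 and 1.21 ± 0.12 (adjusted p = 3.25e-06 and 4.86e-07). The 2 comparisons share the Res tumors, so their opposite signs, for these genes and for others named here, are not independent. In Prog against Veh tumors 4 of the 10 rose and 2 fell, where 25.2% of all genes tested were called higher and 21.1% lower. In Prog against Res tumors 4 rose and 3 fell, where 40.0% were called higher and 32.4% lower. Chosen after its values were seen, Gpnmb, a melanosome and macrophage glycoprotein, had the largest rise of the list in Res tumors, at 2.96 ± 0.55 (adjusted p = 0.000488). It ranged from 17.0 to 148 FPKM in Res tumors and from 2.06 to 6.30 FPKM in Veh tumors.

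Pax3, the paired-box factor that marks the lineage from the neural crest on, was at 6.72 FPKM or above in all 25 tumors and was lower in the resistant tumors of batch 1. It read 13.5, 15.9, 15.3 and 13.2 FPKM in Veh tumors and 11.9, 14.6, 9.99 and 10.8 FPKM in Reg tumors. The Res tumors stood at 15.9, 15.2, 16.1, 13.7 and 11.8 FPKM and the Prog tumors at 11.1, 8.86, 8.65, 11.2 and 8.02 FPKM. No Prog tumor reached the lowest Veh or Res tumor. Pax3 averaged 9.57 ± 1.49 FPKM in Prog tumors (SD, n = 5) against 14.5 ± 1.81 FPKM in Res tumors (SD, n = 5), a log2 difference of -0.56 ± 0.12 (adjusted p = 0.000417). Against the 14.5 ± 1.34 FPKM of Veh tumors (SD, n = 4) the Prog difference was the same size, -0.56 ± 0.12 (adjusted p = 0.00185). Both calls held with every tumor left out in turn. Groups that do not overlap were common, at 53.8% of all genes in Prog against Res tumors and 38.9% in Prog against Veh tumors. Between Res and Veh tumors Pax3 differed by 0.00 ± 0.12, with a 95% interval from -0.26 to 0.26, in the comparison where Mitf rose. Pax3 also marks muscle precursors. The satellite cell markers Pax7, Myf5 and Myod1 summed to 0 to 0.0872 FPKM in Prog tumors, 0.106 to 1.05 FPKM in Res tumors and 0 to 0.0544 FPKM in Veh tumors, and their part in the Pax3 values was not tested.

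**Figure D4:**
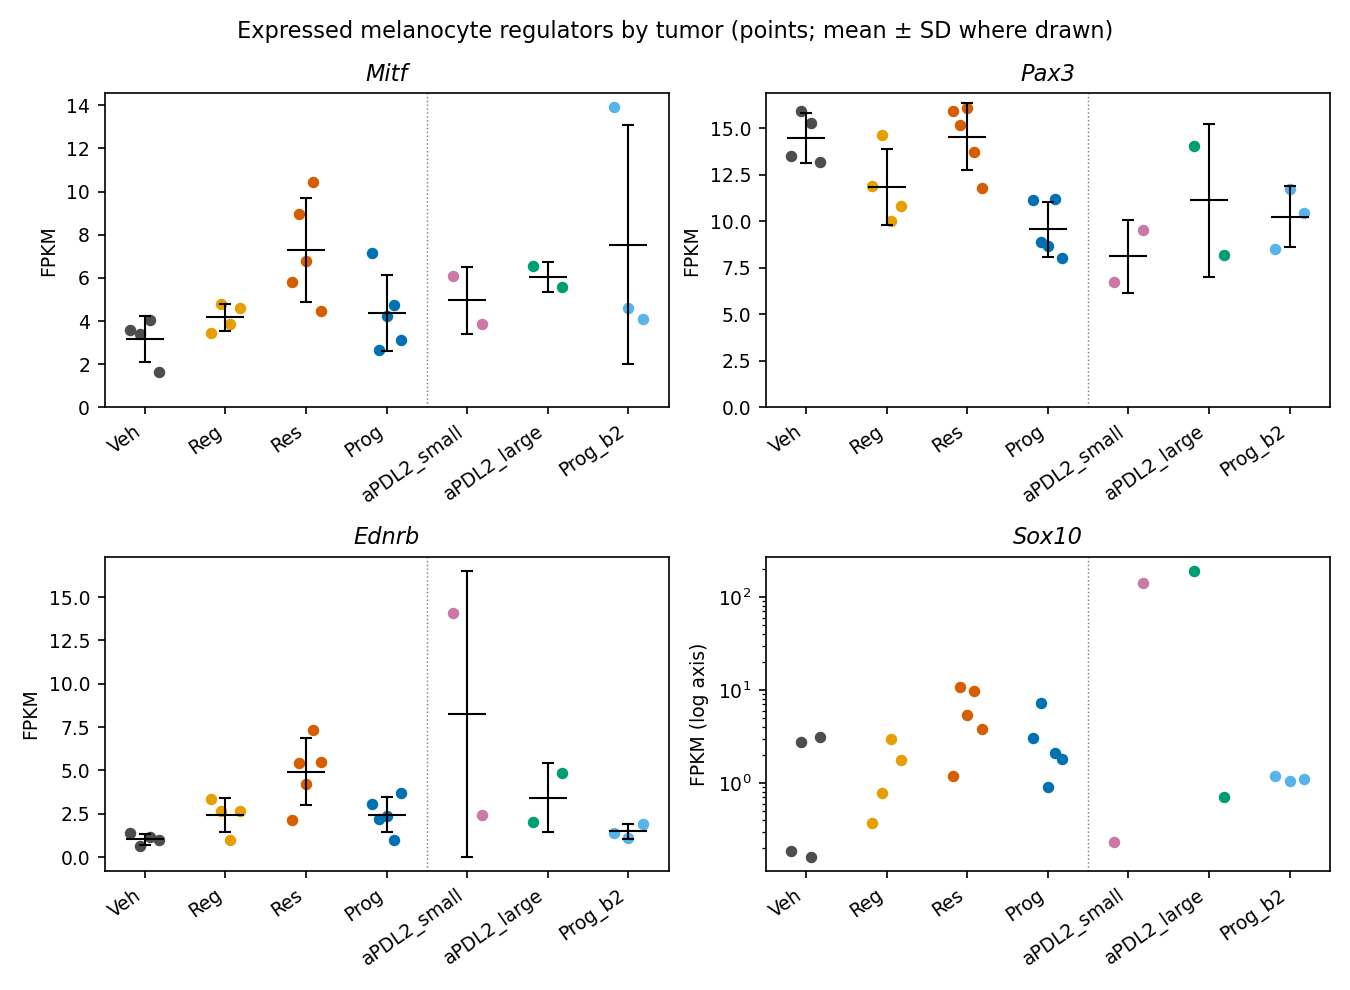
FPKM of Mitf, Pax3, Ednrb and Sox10 in each tumor (points) by group, with mean and SD; Sox10 has a log axis and no mean, and the dotted line divides batch 1 from batch 2. Pax3 in the 5 Prog tumors lies at 11.2 FPKM or below, under all Veh and Res tumors, while Sox10 splits both antibody groups.

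Sox10, the neural crest factor that works with Pax3 on Mitf, was the most uneven of the expressed genes. In Veh tumors it read 0.185, 2.77, 0.162 and 3.16 FPKM, and in Reg tumors 0.375, 0.787, 2.97 and 1.78 FPKM. In Res tumors it read 1.18, 10.7, 5.40, 9.82 and 3.85 FPKM, and in Prog tumors 3.04, 7.33, 0.912, 2.10 and 1.83 FPKM. The Res and Veh groups overlapped, with Res 1 below 2 Veh tumors, and the highest Sox10 of batch 1 was in Res 2 and Res 4. Sox10 averaged 6.19 ± 4.03 FPKM in Res tumors (SD, n = 5) against 1.57 ± 1.62 FPKM in Veh tumors (SD, n = 4), a rise of 1.51 ± 0.55 (adjusted p = 0.0347).

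The Sox10 call was fragile. Without Veh 1, Veh 3, Res 2, Res 3 or Res 4 its adjusted p lay between 0.0595 and 0.112. Veh 1, Veh 3 and Res 1 also stood apart in keratinocyte markers, which summed to 1552, 429 and 775 FPKM there and to at most 38.3 FPKM in the other 15 tumors of batch 1. Those 3 tumors held the lowest Sox10 of their groups. With all 3 left out, an alternative chosen after the data were seen, the difference was 1.00 (adjusted p = 0.163). In Prog against Res tumors Sox10 differed by -0.79 ± 0.52 (adjusted p = 0.183), and without Res 1 by -1.16 (adjusted p = 0.0449). The part of skin in these values was not tested.

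Mlana was listed above 0 in the 3 batch 1 tumors with the most Sox10, but did not follow Sox10 among the others. The 3 tumors above 7 FPKM of Sox10, a limit set after the values were seen, were Res 2, Res 4 and Prog 2. They had 0.327, 0.253 and 0.665 FPKM of Mlana, and the other 15 had at most 0.192 FPKM. Mlana was listed at 0 in Res 3, Res 5, Veh 4 and Veh 2, at 5.40, 3.85, 3.16 and 2.77 FPKM of Sox10. The 0.192 FPKM was that of Prog 3, which had 0.912 FPKM of Sox10. These Mlana levels remain under 1 FPKM and are given as a description.

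Ednrb, the endothelin receptor that neural crest cells need on their way to the skin, was lowest before treatment. It read 1.37, 0.619, 1.15 and 1.00 FPKM in Veh tumors and 3.32, 2.66, 1.00 and 2.68 FPKM in Reg tumors. It stood at 2.12, 5.43, 4.20, 7.35 and 5.49 FPKM in Res tumors and at 3.07, 2.21, 2.37, 0.963 and 3.67 FPKM in Prog tumors. All 5 Res tumors lay above all 4 Veh tumors, in a comparison where 32.0% of all genes tested had groups that did not overlap. Ednrb averaged 4.92 ± 1.93 FPKM in Res tumors (SD, n = 5) against 1.03 ± 0.317 FPKM in Veh tumors (SD, n = 4), a rise of 1.48 ± 0.29 (adjusted p = 0.000737) that held with every tumor left out in turn. Prog tumors averaged 2.45 ± 1.02 FPKM (SD, n = 5) and fell against the 4.92 ± 1.93 FPKM of Res tumors, a log2 difference of -0.76 ± 0.27 (adjusted p = 0.0196). Without Res 4 or Prog 4 that adjusted p was 0.0590 and 0.0616. Prog tumors differed from Veh by 0.72 ± 0.29 (adjusted p = 0.0521), and without Prog 4 by 0.91 (adjusted p = 0.0147).

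Ednrb also passed the threshold in Res against Reg tumors, with 4.92 ± 1.93 FPKM in Res tumors (SD, n = 5) and 2.42 ± 0.992 FPKM in Reg tumors (SD, n = 4), at 0.78 ± 0.29 (adjusted p = 0.046). The groups overlapped, and the call was lost in 7 of the 9 fits that left out a tumor, with the adjusted p as high as 0.157 without Reg 3. In the same comparison Mitf and Sox10 differed by 0.64 ± 0.25 and 1.42 ± 0.55 without passing (adjusted p = 0.0556 and 0.053).

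Endothelial cells and pericytes also carry Ednrb, and their markers rose beside it in Res against Veh tumors. Endothelial markers summed to 68.7 to 169 FPKM in Res tumors and 29.7 to 65.2 FPKM in Veh tumors, and 3 of 4 pericyte and smooth muscle markers tested rose, with sums of 66.7 to 190 FPKM in Res tumors and 19.5 to 49.6 FPKM in Veh tumors. In that comparison 20.4% of all genes tested were called higher. In Prog tumors the endothelial sums were 100.5 to 136 FPKM, within the Res range, but Cdh5 alone gave 76.7 to 118 FPKM of them. The other 6 endothelial markers fell in Prog against Res tumors, where 32.4% of all genes tested were called lower. The pericyte and smooth muscle sums in Prog tumors were 31.8 to 69.4 FPKM. The genes whose levels followed Ednrb most closely over the 18 tumors of batch 1 were Angpt2, Lrrc32, Jam2, S1pr1 and Epas1, with Pearson r from 0.84 to 0.90 on the log2 scale. Angpt2 encodes angiopoietin-2 and S1pr1 the sphingosine phosphate receptor of vessels. Ednrb and Mitf correlated at 0.64 and Ednrb and Pax3 at -0.02 over the same tumors, which share their groups and processing. The part of vessel cells in the Ednrb changes was not tested.

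The other regulators followed different patterns from one another. The genes closest to Mitf over the 18 tumors were Pon2, Tmco3, Tmem66, Akap13 and Tom1 (r from 0.87 to 0.90). Closest to Pax3 were Cbx6, Rbm4b, Dexi, Dok4 and Camkmt (r from 0.88 to 0.91). Among the closest to Sox10 were Cd200, Folh1, Galnt16 and Lgi4 (r from 0.86 to 0.87), of which Lgi4, a secreted glial ligand, is known from Schwann cells. Pax3 and Sox10 themselves correlated at 0.01, and Mitf correlated with them at 0.36 and 0.41. Of the 7 Schwann cell markers 4 were tested, and 1 rose in Res against Veh tumors, where 20.4% of all genes tested were called higher. Sums over the 7 were 18.005 to 42.4 FPKM in Res tumors and 22.7 to 27.0 FPKM in Veh tumors. The part of Schwann cells in the Sox10 values was not tested.

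Of 15 other melanocyte regulators and signals 11 were tested. In Res against Veh tumors 2 rose and 1 fell, where 45.5% of all genes tested were called, and in Prog against Veh tumors 5 rose and 2 fell, where 46.3% were. In Prog against Res tumors 6 rose and 5 fell, where 72.4% of all genes tested were called, 40.0% higher and 32.4% lower. Tfap2a, a neural crest factor that works beside Mitf, rose by 1.22 ± 0.21 in Prog against Veh tumors (adjusted p = 0.000347), with 57.5 to 89.6 FPKM in Prog tumors and 20.6 to 35.6 FPKM in Veh tumors. Sox9, a relative of Sox10 that is often high where Sox10 is low, read 70.3 to 97.2 FPKM in Prog tumors, against 16.4 to 25.9 FPKM in Res tumors, a rise of 1.99 ± 0.21 (adjusted p = 6.49e-07). It had fallen by 0.95 in Res against Veh tumors (SE 0.22, adjusted p = 0.00239). Ctnnb1, the Wnt effector beta-catenin that acts with Lef1 on Mitf, rose by 0.47 ± 0.07 in Prog against Res tumors. Kitl, the growth factor of melanocytes and mast cells, fell by 1.63 on the log2 scale in Prog against Veh tumors (adjusted p = 8.22e-05), with 2.51 to 7.88 FPKM in Prog tumors and 15.3 to 18.3 FPKM in Veh tumors.

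The receptors and ligands around Ednrb and Kitl are named here after their values were seen. Kit, the Kitl receptor that marks both melanocytes and mast cells, rose by 1.36 ± 0.39 in Res against Veh tumors (adjusted p = 0.00952), in the comparison where the mast cell markers rose. Edn1, a ligand of Ednrb made by endothelium and keratinocytes, rose by 1.26 ± 0.25 (adjusted p = 0.00076), and read 1.15 to 6.09 FPKM in Res tumors and 0.436 to 0.996 FPKM in Veh tumors. Edn3, the ligand that guides melanocyte precursors, was listed at 0.0160 FPKM or less in every tumor.

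Of 8 genes known to be high in dedifferentiated, Mitf-low melanoma, Sox9 among them, 7 were tested. In Res against Veh tumors 4 fell and 0 rose, where 25.1% of all genes tested were called lower. In Prog against Veh tumors 4 rose and 0 fell, where 25.2% were called higher, and in Prog against Res tumors 6 rose and 0 fell, where 40.0% were called higher. The gene not tested, the nerve growth factor receptor Ngfr, named after its values were seen, read 0.0511 to 0.423 FPKM in Prog tumors, 0.169 to 0.440 FPKM in Res tumors and 0.0724 to 0.378 FPKM in Veh tumors. Their median was 1.14 in Prog against Res tumors, beside 0.08 over all genes. Wnt5a, a secreted ligand of noncanonical Wnt signalling, read 50.4, 52.1, 71.6, 90.1 and 67.5 FPKM in Prog tumors, against 1.97, 8.60, 5.44, 11.8 and 14.6 FPKM in Res tumors, a rise of 3.01 ± 0.33 (adjusted p = 1.18e-06). Jun and Tead1, transcription factors downstream of growth and Hippo signalling, rose by 0.66 ± 0.16 and 1.17 ± 0.17. Axl, a receptor kinase used as a marker of the Mitf-low state and named after its values were seen, differed by 0.19 ± 0.12 (adjusted p = 0.168). In batch 2 Wnt5a was 4.65 to 8.91 FPKM in the Prog_b2 tumors, so the high level of the Prog tumors of batch 1 was not seen there.

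The pigment genes were below 1 FPKM in every tumor, as were Mc1r and Ppargc1a. By group mean they ranged from the bottom of the table, where Dct and Mlana were listed at 0 in all tumors of Prog_b2 and aPDL2_large, to above 44.9% of all genes, for Mlana in Prog tumors. Over Dct, Tyr, Tyrp1, Mlana, Mc1r and Ppargc1a in 25 tumors there were 150 values, of which 39 were listed at 0 and 20 reached 0.1 FPKM. Their median was 0.0218 FPKM. With no counts in the table the depth is unknown, so no detection limit can be attached to a value of 0. None of the 6 passed the filter of a mean of 1 FPKM, so none entered the tests above.

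Tyr, the enzyme that starts melanin synthesis, was the one pigment gene above 0 in all 25 tumors, between 0.0122 and 0.129 FPKM. Its medians were 0.0380 FPKM in Veh, 0.0529 in Reg, 0.0294 in Res and 0.0989 in Prog tumors of batch 1. In batch 2 the range was 0.0306 to 0.0678 FPKM over all 7 tumors. Tyrp1 was listed at 0 in 10 tumors and Dct in 8. Dct peaked at 0.422 FPKM in Veh 1, and Tyrp1 at 0.208 FPKM in the same tumor.

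The highest values of these enzymes were shared by a few tumors. Veh 1, Res 1 and Reg 2 held the 3 highest values of both Dct (0.422, 0.282 and 0.244 FPKM) and Tyrp1 (0.208, 0.0982 and 0.130 FPKM). Krt14, a keratin of the basal epidermis and hair follicle, read 592, 158 and 7.66 FPKM in those 3 tumors, and keratinocyte markers as a list summed to 1552, 775 and 15.8 FPKM. Other tumors with more Krt14 than Reg 2 had less of both enzymes: Veh 3, at 98.2 FPKM of Krt14 and a keratinocyte sum of 429 FPKM, read 0.0824 FPKM of Dct and 0.0164 FPKM of Tyrp1. Reg 4, at 9.05 FPKM of Krt14 and a sum of 38.3 FPKM, read 0.00875 and 0.00709 FPKM of Dct and Tyrp1. The mouse's own melanocytes sit in hair follicles, and the part of skin in these traces was not tested.

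Mlana was listed at 0 in 15 of 25 tumors, among them all 3 Prog_b2 and both aPDL2_large tumors. It read 0.0917, 0.665, 0.192, 0.191 and 0 FPKM in Prog tumors, against 0.0811, 0, 0 and 0 FPKM in Veh tumors. The groups overlapped through the Prog tumor listed at 0 and the Veh tumor above it.

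Mc1r, the receptor that raises cyclic AMP and with it Mitf in melanocytes, was barely detected, with 0.0344 to 0.0524 FPKM in Prog tumors, 0.0207 to 0.0558 FPKM in Res tumors and 0 to 0.0184 FPKM in Veh tumors. Neither the Prog nor the Res values overlapped Veh, while the Reg values, at 0.00586 to 0.0336 FPKM, did. Among genes that passed the filter, 38.9% had groups that did not overlap in Prog against Veh tumors and 32.0% in Res against Veh tumors. With no filter on low values, Mc1r differed by 0.05 in Prog against Veh tumors and by 0.04 in Res against Veh tumors (limma, adjusted p = 0.00127 and 0.00408). In those 2 comparisons 5928 and 6301 of 19952 genes were called. The highest Mc1r of the series, 0.228 FPKM, was in aPDL2_large 1.

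Ppargc1a, the mitochondrial coactivator known as a Mitf target in pigmented melanoma, was at most 0.138 FPKM. It read 0, 0.00985, 0.00368, 0.00343 and 0 FPKM in Prog tumors, against 0.0367, 0.0842, 0.0487, 0.138 and 0.0114 FPKM in Res tumors, so each Res tumor was above each Prog tumor. Among genes that passed the filter, 53.8% had groups that did not overlap in this comparison. With no filter the Ppargc1a difference was -0.08 (limma, adjusted p = 0.00476), in a fit where 11028 of 19952 genes were called. Skeletal muscle, which makes much Ppargc1a, left markers that summed to 65.7 to 922 FPKM in Res tumors and 2.58 to 37.5 FPKM in Prog tumors. The brown adipocyte markers Ucp1 and Cidea summed to at most 0.492 FPKM in any tumor. The part of muscle in the Ppargc1a trace was not tested.

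The mitochondrial genes that Ppargc1a is known to drive were expressed. Of 10 partners and targets 7 were tested. In Res against Veh tumors 2 rose and 4 fell, where 20.4% of all genes tested were called higher and 25.1% lower. In Prog against Veh tumors 4 rose and 0 fell, where 25.2% were called higher and 21.1% lower. In Prog against Res tumors 5 rose and 1 fell, where 40.0% were called higher and 32.4% lower. Tfam, which packs and transcribes mitochondrial DNA, read 11.2 to 14.6 FPKM in Prog tumors, against 7.05 to 8.48 FPKM in Res tumors, a rise of 0.67 ± 0.08 (adjusted p = 2.26e-06). Cycs, cytochrome c, rose by 1.07 ± 0.15 and Nrf1, a nuclear activator of respiratory genes, by 0.50 ± 0.08. Pdk4, a kinase that turns fuel use from glucose to fat, went the other way, falling by 2.20 (SE 0.36, adjusted p = 5.03e-05). Ppargc1a itself, at 0.00985 FPKM or less in the Prog tumors, stayed near 0 in the same tumors.

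The wider pigment machinery held both expressed genes and genes near 0. Of 11 genes of melanosome building, channels and transport 5 were tested. Of the 6 others, all of them named after their values were seen, Pmel, the melanosome fibril protein, ranged from 0.113 to 0.872 FPKM, and Trpm1, a melanocyte channel that hosts a microRNA, reached at most 0.144 FPKM. Gpr143, a melanosome receptor, reached at most 0.190 FPKM and Slc45a2, a melanosome transporter, at most 0.0394 FPKM. Oca2, another melanosome transporter, was listed at 0 in 24 of 25 tumors, while Rab38, which delivers cargo to melanosomes, ranged from 0.0404 to 3.39 FPKM. Myo5a, the motor that carries melanosomes and other cargo, passed in none of the 3 comparisons among Veh, Res and Prog tumors, at 0.07 ± 0.12 in Res against Veh tumors. Rab27a and Rab32, which steer melanosomes and other lysosome-related organelles, rose by 1.15 ± 0.39 and 0.66 ± 0.17 in Res against Veh tumors (adjusted p = 0.0243 and 0.00615). Both fell again in Prog against Res tumors, by 1.56 and 0.74 on the log2 scale (SE 0.37 and 0.16). These Rab genes are also used by blood cells, whose macrophage and mast cell markers moved in the same direction; their part was not tested.

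Slc24a5, the potassium-dependent sodium and calcium exchanger of melanosomes, moved opposite to Rab27a and Rab32. It read 18.6, 20.9, 20.9, 20.4 and 20.3 FPKM in Prog tumors, against 7.34, 6.76, 7.50, 5.49 and 8.59 FPKM in Res tumors. Every Prog tumor lay above every Res tumor, a rise of 1.39 ± 0.13 (adjusted p = 2.62e-07). In that comparison 53.8% of all genes tested had groups that did not overlap. Slc24a5 had fallen by 0.66 in Res against Veh tumors (SE 0.14, adjusted p = 0.00116), and it was higher in Prog than in Veh tumors by 0.73 ± 0.14 (adjusted p = 0.00064). Over all 25 tumors Slc24a5 ranged from 5.49 to 20.9 FPKM, while Tyr stayed at 0.129 FPKM or less.

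In batch 2 Sox10 split both antibody groups. It read 0.233 and 139.6 FPKM in aPDL2_small tumors, 188 and 0.713 FPKM in aPDL2_large tumors, and 1.18, 1.05 and 1.11 FPKM in Prog_b2 tumors. The high tumors, aPDL2_small 2 and aPDL2_large 1, were in different groups, and their partners were the 2 lowest of the batch. Outside this pair no tumor of the series exceeded 10.7 FPKM. The group differences were not detectable, at 2.64 ± 2.46 for aPDL2_small and 3.09 ± 2.46 for aPDL2_large against Prog_b2 (adjusted p = 0.662 and 1).

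The same 2 tumors carried other neural crest and glial genes. S100b, a calcium-binding protein of glia and melanocytes, read 12.4 FPKM in aPDL2_small 2 and 20.2 FPKM in aPDL2_large 1, against 0.140 to 0.440 FPKM in the other 5 tumors of the batch. Lef1, the Wnt partner of beta-catenin, read 21.2 and 33.0 FPKM, and 2.87 to 13.4 FPKM in the other 5. Erbb3, a neuregulin receptor of the neural crest, read 8.88 and 28.3 FPKM, and at most 0.660 FPKM elsewhere in the batch. Foxd3, a factor of early neural crest, reached 5.93 FPKM in aPDL2_large 1 and 0.332 FPKM in aPDL2_small 2. Erbb3, Foxd3 and Lef1 were picked after their values were seen.

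Mbp, myelin basic protein, did not follow Sox10 in the same way. It read 12.7 FPKM in aPDL2_small 2 and 3.45 FPKM in aPDL2_large 1, where the other 5 ranged from 0.367 to 7.34 FPKM, so the value of aPDL2_large 1 lay within their range. The 7 Schwann cell markers summed to 97.4 FPKM in aPDL2_small 2, 93.3 FPKM in aPDL2_large 1 and 26.7 to 66.8 FPKM in the other 5. More glial genes are named after their values were seen. Cnp read 25.3 and 21.6 FPKM in the 2 tumors and 8.34 to 16.2 FPKM in the other 5. Lgi4 read 17.0 and 73.8 FPKM against 0.318 to 5.12 FPKM, and Prx 5.26 and 19.4 FPKM against 1.85 to 5.98 FPKM. Mal stayed at 0.301 FPKM or less. Egr2, at 41.4 and 28.6 FPKM, was highest in Prog_b2 1, at 51.4 FPKM of its sum of 66.8 FPKM. Over the 7 tumors, a comparison added after the values were seen, Wfdc18, S100b, Fgfr2 and Shpk were among the genes that tracked Sox10 most closely, with r from 0.988 to 0.996, which rests on the 2 tumors.

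Pigment genes stayed below 1 FPKM in both of these tumors. In aPDL2_small 2 and aPDL2_large 1, Mitf read 3.86 and 6.53 FPKM, inside the range of the other tumors. Tyr read 0.0678 and 0.0604 FPKM, Dct 0.0604 and 0 FPKM, and Mlana 0.518 and 0 FPKM. Mc1r, at 0.0691 and 0.228 FPKM, had its 2 highest values of all 25 tumors here. Tyrp1, at 0.00976 and 0.00993 FPKM, and Pmel, at 0.725 and 0.508 FPKM, had their 2 highest values of batch 2 here, below the highest of batch 1. Pax3 read 9.51 and 14.0 FPKM in the same pair.

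**Figure D5:**
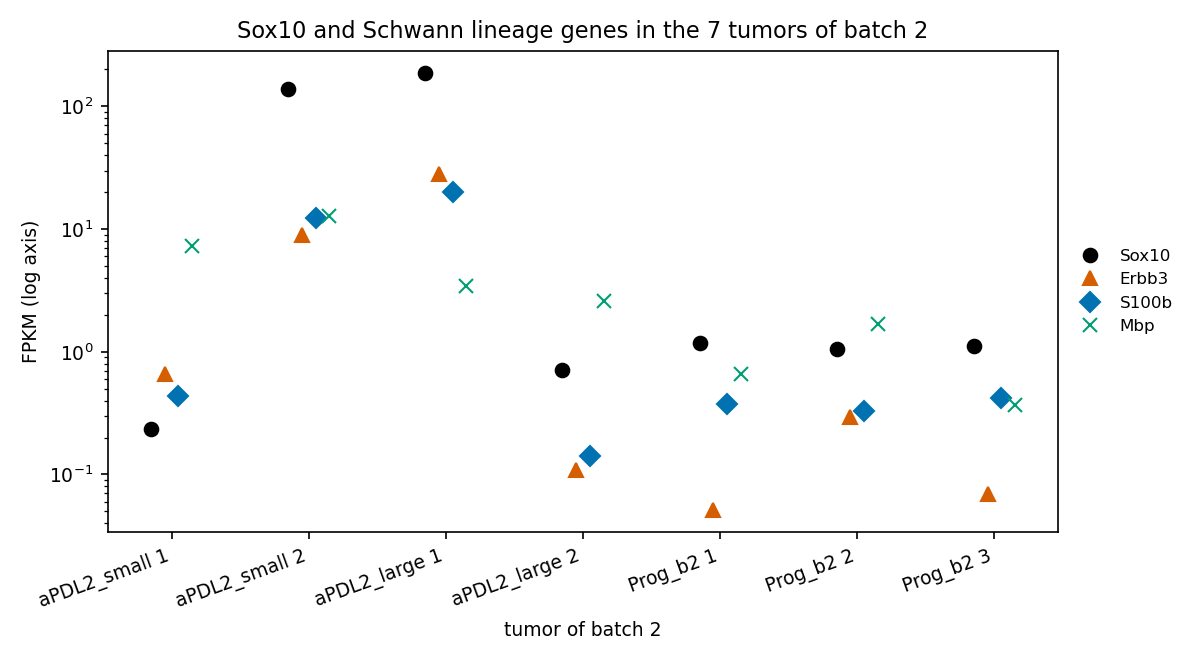
FPKM on a log axis of Sox10 and 3 genes of the Schwann lineage in each of the 7 tumors of batch 2. Sox10, Erbb3 and S100b are high together in aPDL2_small 2 and aPDL2_large 1, while Mbp does not follow them in both tumors.

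The other regulators gave 0 calls in batch 2, as did all 11913 genes tested: 0% were called in aPDL2_small against Prog_b2, in aPDL2_large against Prog_b2 and in aPDL2_small against aPDL2_large by limma. At an unadjusted p under 0.05 these comparisons gave 1399, 165 and 946 genes. Ednrb read 14.1 and 2.44 FPKM in aPDL2_small tumors, 2.02 and 4.85 FPKM in aPDL2_large tumors, and 1.41, 1.08 and 1.93 FPKM in Prog_b2 tumors. Every tumor given the antibody was above every Prog_b2 tumor. Groups that did not overlap, in either direction, were found for 31.7% of all genes in aPDL2_small and 9.64% in aPDL2_large against Prog_b2. The differences were 1.55 ± 0.64 and 0.78 ± 0.64 (adjusted p = 0.417 and 1). Mitf read 6.06 and 3.86 FPKM in aPDL2_small tumors, 6.53 and 5.56 FPKM in aPDL2_large tumors, and 13.9, 4.58 and 4.10 FPKM in Prog_b2 tumors. The value of Prog_b2 1 was the highest Mitf of the series, and the groups overlapped.

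Pax3 read 6.72 and 9.51 FPKM in aPDL2_small tumors, 14.0 and 8.19 FPKM in aPDL2_large tumors, and 8.51, 11.8 and 10.4 FPKM in Prog_b2 tumors. In batch 1 the residual tumors had exceeded the resistant ones, and in batch 2 they did not. The difference between these differences, (aPDL2_small minus Prog_b2) minus (Res minus Prog), was -0.87 ± 0.25 (adjusted p = 0.0227), where 17.4% of all genes were called, 7.97% lower and 9.44% higher. It was lost without aPDL2_small 1 (adjusted p = 0.132) or Prog_b2 2 (adjusted p = 0.0646). Batch and antibody cannot be told apart in it. The same contrast was -0.995 ± 0.49 for Mitf, 0.79 ± 0.60 for Ednrb and 1.85 ± 1.86 for Sox10, none of which passed.

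Resistant tumors of the 2 batches were not told apart in these genes. Prog_b2 against Prog tumors gave 0 lineage calls, where 8.94% of all genes were called, 2.88% higher and 6.06% lower. Mitf differed by 0.54 ± 0.32, Pax3 by 0.09 ± 0.16, Ednrb by -0.44 ± 0.39 and Sox10 by -0.75 ± 1.22. The 95% interval for Mitf ran from -0.12 to 1.21, so a difference of 1 on the log2 scale lay inside it.

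Ordered by group mean, Mitf ran from 3.17 FPKM in Veh through Reg, Prog, aPDL2_small, aPDL2_large and Res to 7.54 ± 5.54 FPKM in Prog_b2 (SD, n = 3). That last mean rests on Prog_b2 1 at 13.9 FPKM, as the other Prog_b2 tumors read 4.58 and 4.10 FPKM. Pax3 ran from 8.12 ± 1.97 FPKM in aPDL2_small (SD, n = 2) through Prog, Prog_b2, aPDL2_large and Reg to 14.5 FPKM in Veh and Res. Ednrb ran from 1.03 FPKM in Veh through Prog_b2, Reg, Prog, aPDL2_large and Res to 8.26 ± 8.23 FPKM in aPDL2_small (SD, n = 2). Sox10 ran from 1.11 FPKM in Prog_b2 through Reg, Veh and Prog to 6.19 FPKM in Res, with the antibody groups above these through 1 tumor each. Neighbours in the first 3 orders differed by less than the larger of their SDs, except Pax3 in Reg and Veh tumors and Ednrb in Veh and Prog_b2 tumors. The orders cross the batches, and batch and group cannot be told apart in them.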

How the data were processed

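The values are FPKM for each gene and library in a table the authors deposited; per the submitters' processing notes, which name no versions or order, TopHat, TopHat2, Cuffnorm and Cuffdiff were used with mouse build mm9, and per the labels' protocols the library kit was unstranded. No counts were given, so depth is unknown and no counting interval can be stated. The columns sum to between 496435 and 2065750 FPKM, and 11081 to 12262 genes reach 1 FPKM. FPKM are set per gene, so start sites of Mitf are not separated, and reads of overlapping genes on opposite strands cannot be told apart. Groups came from sample titles.

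Differences were tested with limma 3.58.1 (R 4.3.3; lmFit, contrasts.fit, eBayes with trend) on log2(FPKM + 1), which understates changes of low genes, over all genes with a mean of at least 1 FPKM, with Benjamini-Hochberg adjustment over all of them and a threshold of 0.05. One fit held the 18 tumors of batch 1, another the 7 of batch 2, and contrasts across batches used all 25. The code was tested on simulated data.

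The members, gene lists and marker lists were chosen with earlier results of these data known. Named were the 10 members, the MiT family, up to 4 genes of each list with the smallest adjusted p in batch 1, the 5 genes closest to each expressed member, and markers that moved with a member; any gene picked once its level was known is marked so. Some genes under this rule and of the marker lists are not reported here. Promoter sequences are RefSeq's, on GRCm38.p6, which is not the authors' build. Python 3.11.15, pandas 2.3.3 and matplotlib 3.10.9 were used for summaries and figures. Alternatives were a pseudocount of 0.1, no filter, size factors, a replicate block, library weights, other sets of libraries and each tumor left out. Some were added after seeing the data: leaving out tumors that stood apart, and a term for columns that look like means.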

Additional observations from a re-analysis of the deposited data

Results flagged for a closer look

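Among the 10 genes, 40 groups of 4 or 5 tumors were examined for a tumor far from the others, and 6 had one. Chance flags about 1 in 20 groups where values are normally distributed. All 6 lay below 1 FPKM, in genes near 0, where that rate need not hold. The number flagged is therefore given as a description. Dct read 0.244 FPKM in Reg 2, where the other Reg tumors read at most 0.0315 FPKM. Tyr read 0.120 FPKM in Res 1, where the others of its group reached 0.0418 FPKM. Tyrp1 read 0.208 FPKM in Veh 1 and 0.0982 FPKM in Res 1, where the others of those groups reached 0.0164 and 0.00636 FPKM. Mlana read 0.0811 FPKM in Veh 1, where the other Veh tumors were listed at 0, and 0.665 FPKM in Prog 2, where the others reached 0.192 FPKM. Krt14 read 592 FPKM in Veh 1, 158 FPKM in Res 1, 7.66 FPKM in Reg 2 and 0.238 FPKM in Prog 2.

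Pax3 was singled out because residual and resistant tumors differed otherwise in the 2 batches. The contrast, (aPDL2_small minus Prog_b2) minus (Res minus Prog), was -0.87 on the log2 scale (limma, adjusted p = 0.0227).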

How the results depend on the processing

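Over 44 differences of the 4 expressed genes and 713 alternative values, 616 kept direction and side of the threshold, 30 lost and 26 gained a call, and 41 changed sign, in 17 differences of which none was called. The rises of Mitf and Ednrb in Res against Veh tumors and the falls of Pax3 in Prog tumors held in all. Depth is unknown, and 9 of 25 columns hold values with more digits, as a mean of runs would.

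The number of members called in Prog against Veh tumors was 2 in place of 1 with a pseudocount of 0.1, no filter, library weights, the compared groups alone or without the 3 tumors high in Krt14. In Res against Reg tumors it was 0 in place of 1 with a pseudocount of 0.1, all 25 libraries or the compared groups alone, 2 with no filter, size factors, the means term or without the 3 tumors, 3 with the replicate block and 4 with library weights. In Prog against Reg tumors it was 1 in place of 0 with no filter or library weights. Leaving out 1 tumor each gave 2 to 3 in Res against Veh, 1 to 2 in Prog against Veh, 0 to 2 in Res against Reg, 1 to 4 in Prog against Res, 0 to 1 in Prog against Reg and 0 to 1 for the difference between batches. The cause was not tested, except that with no filter all 10 members were tested.

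Replicate numbers are only numbers here: of 25 same-numbered pairs, 7 had deviations correlated over 0.1 (range -0.52 to 0.38). With the replicate block, Res against Reg tumors gained Mitf (adjusted p = 0.0407), Sox10 (0.0264) and Pax3 (0.0352) and lost Ednrb (0.111).

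Further losses of the Sox10 rise in Res against Veh tumors came with no filter (adjusted p = 0.0544), all 25 libraries (0.294) and the compared groups alone (0.0686), and of the Ednrb fall in Prog against Res tumors with all 25 libraries (0.053).

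Signs turned, in values far from the threshold, as follows. Without the 3 tumors high in Krt14, Sox10 was -0.80 in Reg and -0.16 in Prog against Veh, and Pax3 -0.035 in Res against Veh. With the means term, Mitf was -0.091 in Reg and Pax3 -0.0042 in Res against Veh. In Prog against Reg, Mitf was -0.011 with a pseudocount of 0.1 and -0.18 with library weights, and Ednrb -0.072 with the replicate block. Without the 2 tumors high in Sox10, Pax3 was -0.28 in aPDL2_large against Prog_b2 and Mitf 0.11 in aPDL2_small against aPDL2_large. Leaving out 1 tumor each moved Sox10 from -0.22 to 0.40 in Reg against Veh, Pax3 from -0.037 to 0.073 in Res against Veh, and Mitf from -0.16 to 0.13 and Ednrb from -0.22 to 0.20 in Prog against Reg. In aPDL2_small against Prog_b2 it moved Mitf from -0.64 to 0.14 and Sox10 from -0.78 to 6.06, and in aPDL2_large against Prog_b2 Mitf from -0.38 to 0.40, Sox10 from -0.30 to 6.49 and Pax3 from -0.28 to 0.43. In aPDL2_small against aPDL2_large it moved Mitf from -0.53 to 0.0064, Sox10 from -3.87 to 2.96 and Ednrb from -0.29 to 1.84. Pax3 in Prog_b2 against Prog ran from -0.0080 to 0.20, and the difference between batches from -1.56 to 5.27 for Sox10 and from -0.27 to 1.86 for Ednrb.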

Other observations

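The tumor with the most Mitf, Prog_b2 1 at 13.9 FPKM, also stood out in genes of the surrounding lists, chosen after their values were seen. Tbx2, a repressor of senescence in melanocytes, read 62.6 FPKM there, against 17.5 and 24.9 FPKM in the other Prog_b2 tumors. Tfeb read 13.0 FPKM, against 5.12 and 2.49 FPKM. Met read 1.07 FPKM, the lowest of the 25 tumors, against 4.37 and 5.09 FPKM. Its pigment genes were at the level of the rest, with Tyr at 0.0590 FPKM and Dct and Mlana listed at 0.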
